A study of Mus musculus with 30 samples.

Results

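Replacement histone variants are histone genes that, for the most part, are transcribed outside S phase as well and give polyadenylated transcripts, unlike the clustered histone genes expressed in S phase. The 10 genes described here were H1f0, H1fx, H2afz, H2afv, H2afx, H2afy, H2afj, H3f3a, H3f3b and Cenpa. The rule was their symbol, from a list drawn up with earlier results of these data known, and each symbol matched 1 row of a count table of 54532 mouse genes. RNA-seq was performed on total RNA of MEL DS19 cells, a mouse erythroleukaemia line that starts to make haemoglobin when treated with dimethyl sulphoxide (DMSO). Wild-type (WT) cells and Abcb10-null cells were each sampled before treatment (day 0) and on days 2 and 5 of treatment with DMSO at 1.5%, with 5 libraries in each of the 6 groups and 30 in all. The Abcb10-null cells were a single CRISPR/Cas9 clone that lacks the mitochondrial transporter ABCB10, so a difference between genotypes cannot be told apart from a difference between this clone and its parent line. The labels call the 5 libraries of a group biological replicates, all grown from the same line or clone.

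Variant histones replace the canonical histones in nucleosomes outside DNA replication. H3.3, encoded by H3f3a and H3f3b, is laid down by the HIRA and ATRX-DAXX chaperones. H2A.Z, encoded by H2afz and H2afv, is exchanged into chromatin by the SRCAP and TIP60 complexes. CENP-A (Cenpa) marks the centromere and is loaded by HJURP. H2A.X (H2afx) is phosphorylated next to DNA breaks, and macroH2A (H2afy) carries a large macrodomain. The linker histone H1.0 (H1f0) is known to accumulate in cells that leave the cycle and differentiate. Erythroid cells are known for condensing their chromatin before they lose the nucleus, and H1.0 induction in DMSO-treated erythroleukaemia cells is a long-known example of linker histone switching.

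Library totals ran from 9906783 to 20157768 counts per gene table column, with a median of 16492117. Abcb10 itself, the edited gene, stood at 118.8, 567 and 1223 CPM (counts scaled to a common library total) in WT cells at days 0, 2 and 5 (means, n = 5 each) and at 74.3, 202 and 212 CPM in the Abcb10-null cells, and the genotypes did not overlap at any of the 3 days. Erythroid marker genes were present in every group, and their summed level ranged from 14486 to 28068 CPM in WT cells and from 6950 to 8908 CPM in Abcb10-null cells at day 5. Lymphoid, fibroblast and mast cell marker lists each summed to 6.51 CPM or less in every library. Myeloid and megakaryocyte markers were present and moved with day and genotype: the myeloid list summed to 80.1 to 109 CPM in WT cells at day 0, 15.4 to 20.04 CPM in WT and 36.6 to 52.8 CPM in Abcb10-null cells at day 5, and the megakaryocyte list to 257 to 426 and 272 to 604 CPM at day 5. The part of these lists in the results below was not tested. In 3 groups 2 libraries stood apart from the rest over 8544 other genes. Libraries 2 and 5 of the Abcb10-null day 2 group lay 0.49 to 0.70 (root mean square log2 difference) from the other 3, which lay 0.24 to 0.34 from each other. Libraries 2 and 5 of the WT day 5 group lay 0.41 to 0.57 from the other 3, which lay 0.21 to 0.25 from each other. These 2 WT day 5 libraries lay 0.75 from each other, so each stood apart separately and they do not form 1 subgroup. The corresponding distance between the 2 libraries was 0.42 in the Abcb10-null day 2 group and 0.16 in the WT day 2 group. Libraries 1 and 2 of the WT day 2 group lay 0.45 to 0.54 from the other 3, which lay 0.24 to 0.30 from each other. Calls that changed when such a pair was left out are given with both values.

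The promoters of 4 members are printed here because these genes moved apart within their pairs: H1f0 and H3f3b were the members that rose most in the Abcb10-null cells, and H2afz and H2afv encode the same variant but moved in opposite directions during differentiation. Each sequence runs from 250 bases before to 50 bases after the RefSeq start of the gene (GRCm38.p6), so that all but its last 50 bases lie upstream of that start. The gene spans given further below come from another annotation. Against those spans the H1f0 window ends before the gene begins, and the H3f3b window lies within the gene. The windows are chr15:79027962-79028261 on the plus strand for H1f0, chr11:116024455-116024754 on the minus strand for H3f3b, chr3:137864237-137864536 on the plus strand for H2afz and chr11:6444394-6444693 on the minus strand for H2afv. Capitals mark matches, on either strand, to any of 7 short motifs. The E2F motif was searched as TTCCCGC and, in its other common form, as TTGGCGC. The cell cycle homology motif was searched as TTTGAA and, in a second known form, as TTCGAA. The others were the CCAAT box, the GC box with the letters GGGCGG, the GATA motif with the letters AGATAA, the H1 box of linker histone genes with the letters AAACACA and the TATA box with the letters TATAAA.
H1f0: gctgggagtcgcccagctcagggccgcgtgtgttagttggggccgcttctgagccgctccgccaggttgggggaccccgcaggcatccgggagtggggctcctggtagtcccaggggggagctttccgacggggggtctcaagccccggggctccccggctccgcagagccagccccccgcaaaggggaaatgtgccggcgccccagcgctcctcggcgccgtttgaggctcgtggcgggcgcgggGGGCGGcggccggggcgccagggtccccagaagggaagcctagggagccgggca
H3f3b: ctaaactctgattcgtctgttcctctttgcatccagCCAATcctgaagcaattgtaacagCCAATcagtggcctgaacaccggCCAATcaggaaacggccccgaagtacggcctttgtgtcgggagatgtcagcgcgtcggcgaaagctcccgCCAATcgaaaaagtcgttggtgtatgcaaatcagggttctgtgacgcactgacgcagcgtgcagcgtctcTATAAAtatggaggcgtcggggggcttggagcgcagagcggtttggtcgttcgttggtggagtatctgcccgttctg
H2afz: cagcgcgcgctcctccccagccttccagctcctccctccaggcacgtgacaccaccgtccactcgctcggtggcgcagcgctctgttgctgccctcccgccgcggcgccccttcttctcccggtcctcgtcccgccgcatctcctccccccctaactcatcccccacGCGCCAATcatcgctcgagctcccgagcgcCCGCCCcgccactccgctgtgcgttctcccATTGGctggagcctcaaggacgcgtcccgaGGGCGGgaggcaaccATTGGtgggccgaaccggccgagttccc
H2afv: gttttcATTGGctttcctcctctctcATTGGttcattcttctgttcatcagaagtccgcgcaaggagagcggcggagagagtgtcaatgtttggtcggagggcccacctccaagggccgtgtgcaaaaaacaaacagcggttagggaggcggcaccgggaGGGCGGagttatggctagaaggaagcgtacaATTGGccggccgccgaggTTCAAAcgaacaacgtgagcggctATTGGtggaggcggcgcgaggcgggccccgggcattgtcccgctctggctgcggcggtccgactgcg

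The H1f0 window held 75.0% G and C, against a median of 52.7% over all 32851 mouse promoters in the table, and its only match was 1 GC box at position -4. The H3f3b window held 4 CCAAT matches and 1 TATA box at position -27, letters found in 37.4% and 13.6% of all promoters. The H2afz window held 1 E2F match at position -83 (6.81% of all promoters), overlapping 1 of its 3 CCAAT matches, and 2 GC boxes (35.7%). H2afv, its partner gene, had 4 CCAAT matches, 1 GC box at position -90 and 1 cell cycle homology match at position -41 (19.2%), and no E2F letters. GATA letters (11.2% of promoters) were found among the members in the Cenpa window alone, and the H1 box (7.18%) in that of H3f3a alone. These matches describe the printed letters and show neither binding nor its absence. The promoter of H2afx was not in the table, and 9 of 10 members had one.

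Each member is a single gene on GRCm38. H1f0 lies at chr15:79028450-79030504, H1fx at chr6:87980421-87981637, H2afz at chr3:137864487-137866922 and H2afv at chr11:6427229-6444443. H2afx lies at chr9:44334694-44336077, H2afy at chr13:56073619-56136361, and H2afj at chr6:136808244-136810074. H3f3a lies at chr1:180800832-180813943, H3f3b at chr11:116021912-116027962 and Cenpa at chr5:30666777-30674830. H2afx carried the 16 bases of the histone stem-loop, the 3′ end signal of the S-phase histone genes, within its exon at chr9:44335240-44335255 on the plus strand, and is printed whole in capitals because it sets this gene apart from the others.
H2afx stem-loop: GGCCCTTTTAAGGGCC
The search used a looser pattern of the stem-loop that allowed alternative letters (C or T, T or A, C or A, A or G) at set positions. No other member held a match to this pattern. Matches to it, not to the printed letters alone, were found in 59 of 21877 protein-coding genes (0.27%), 41 of them among the 67 genes with Hist symbols. The H2afx annotation runs on for 822 bases beyond the stem-loop, so this gene is known as one that can give both a short stem-loop transcript and a longer polyadenylated one, and the table counts both together.

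**Figure D1:**
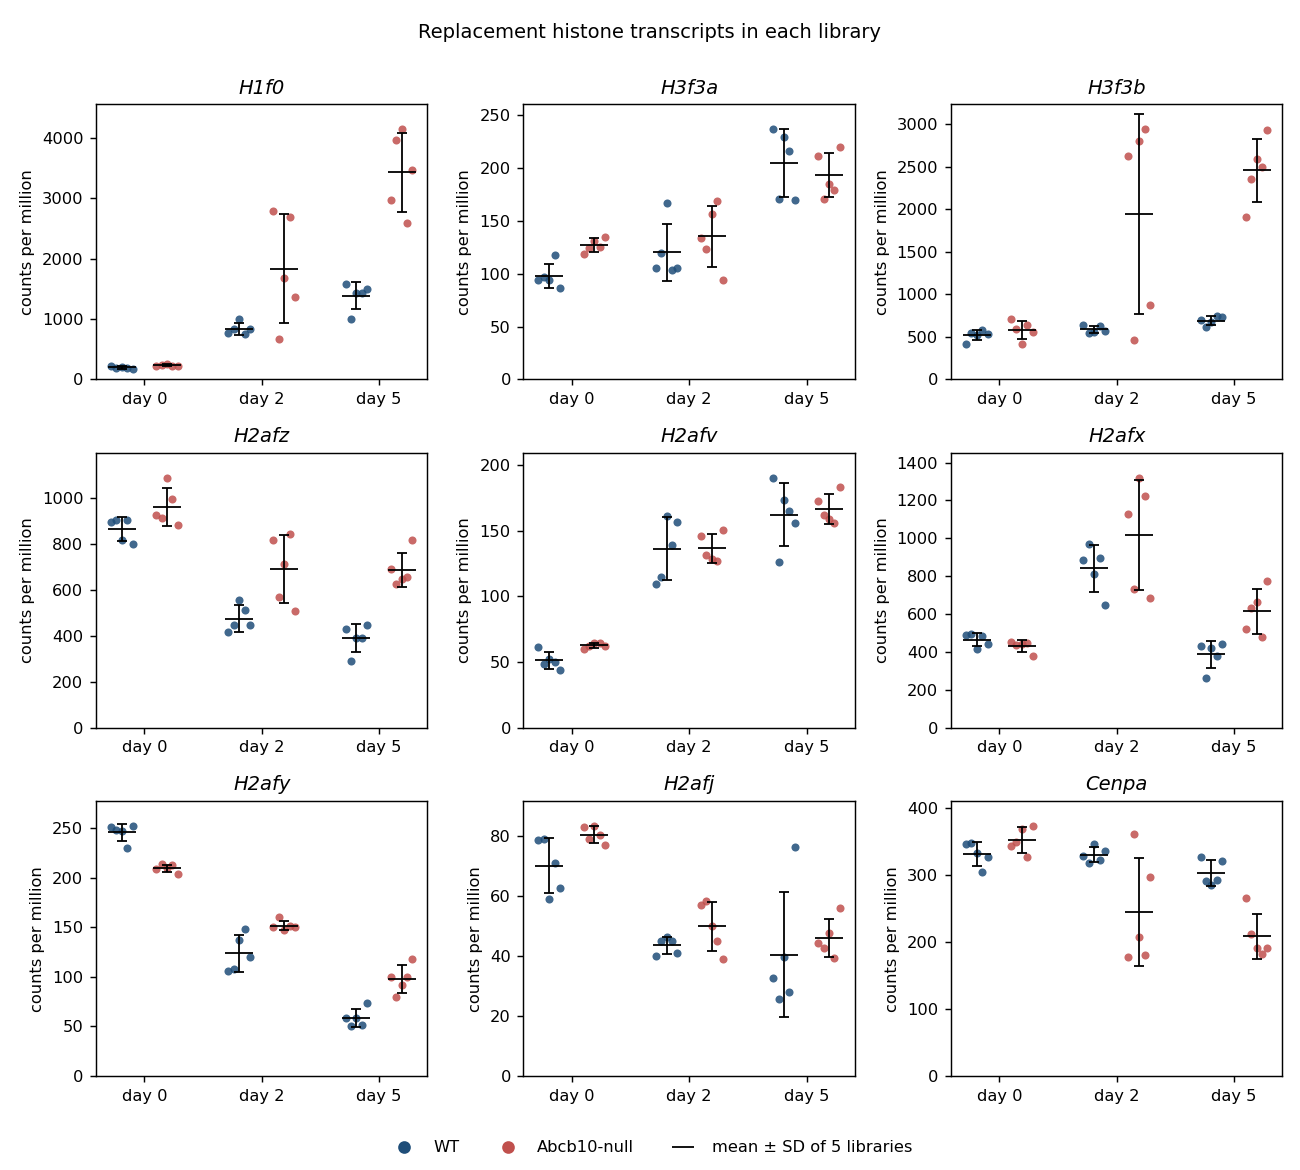
Level of each of the 9 measured variant histone genes in every library, in CPM (vertical axis, one scale per panel starting at 0), against the 6 groups of genotype and day. Points are single libraries and bars the mean ± SD (n = 5). H1f0 and H3f3b had their highest group means, and Cenpa its lowest, in the Abcb10-null day 5 group.

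Of the 10 members, 9 were measured. H1fx, the gene of the linker histone H1X, was listed at 0 in all 30 libraries, and its neighbours Rpn1 and Rab7 had 191711 and 28201 counts in total. A count of 3, the limit that a count of 0 allows, is 0.149 to 0.303 CPM here and covers counting error only. Atp5o, a subunit of the mitochondrial ATP synthase, was also listed at 0 in all libraries, so these zeros are given as listed. H1fx takes no part in what follows, except that it enters the linker histone total of the H1f0 share at 0. Per kb of exon, the order of the mean levels in WT cells at day 0 was H2afz (486 CPM per kb), H2afx (336), H3f3b (174), H1f0 (95.3), Cenpa (56.6), H2afj (38.4), H2afy (36.1), H2afv (31.4) and H3f3a (27.9). In WT cells at day 5, H1f0 came first with 675 CPM per kb, followed by H2afx (280 ± 52.6), H3f3b (232 ± 17.96) and H2afz (219 ± 34.5), where neighbours in the order lay within 1 SD of each other. In Abcb10-null cells at day 5, H1f0 reached 1668 CPM per kb and H3f3b 825 CPM per kb, ahead of H2afx (444) and H2afz (386). The summed level of the members had a median of 2855 CPM in WT cells at day 0, 3500 at day 2 and 3703 at day 5, and of 3065, 7207 and 8250 CPM in Abcb10-null cells on the same days.

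In the comparisons of DMSO-treated with untreated WT cells, 6 of 9 measured members passed the test at day 2 (3 higher and 3 lower), where 62.2% of all 12839 genes tested did, and 7 of 9 at day 5 (4 higher and 3 lower), where 71.2% of 12723 genes did. The test was edgeR's quasi-likelihood test its p-values adjusted by the Benjamini-Hochberg method across every gene tested, with 0.05 as the threshold. In Abcb10-null cells 8 of 9 members passed at day 2 (4 higher and 4 lower, 43.1% of all genes) and 9 of 9 at day 5 (5 higher and 4 lower, 67.2% of all genes). Between the genotypes, 4 of 9 members passed at day 0 (3 higher and 1 lower in Abcb10-null cells) beside 36% of all genes (in a joint fit of all 30 libraries 0 of 9 did, and all genes called went from 4642 to 1584), 3 of 9 at day 2 (all higher) beside 31.8% (0 of 9 without WT day 2 libraries 1 and 2, and all genes called went from 4151 to 738), and 6 of 9 at day 5 (5 higher and 1 lower) beside 37.6%. By direction, higher calls made up 31.5% and lower calls 30.7% of all genes at day 2 in WT cells, 36.5% and 34.7% at day 5 in WT cells, 23.1% and 20.1% at day 2 in Abcb10-null cells and 33.9% and 33.3% at day 5 in Abcb10-null cells. Between the genotypes these shares were 19.7% and 16.2% at day 0, 14.9% and 16.9% at day 2 and 19.8% and 17.8% at day 5. The change from day 0 differed between the genotypes for 3 of 9 members at day 2 (all more positive in Abcb10-null cells, 22.8% of all genes, with 12% more positive and 10.8% more negative) and for 7 of 9 at day 5 (5 more positive and 2 more negative, 31.5% of all genes, with 16.8% and 14.7%). Over the members, the median log2 difference between genotypes came to 0.16, 0.22 and 0.66 on days 0, 2 and 5, beside medians of -0.0019, -0.0022 and -0.016 over all genes tested. Measurements are relative to the library total throughout, and fewer cells of a type and less RNA per cell cannot be told apart.

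H1f0, the linker histone of differentiating cells, rose with DMSO in both genotypes and rose further in the Abcb10-null cells. Untreated WT libraries 1 to 5 held 221, 194, 200.2, 188 and 176 CPM. They held 775, 827, 997, 744 and 834 CPM at day 2 and 1578, 997, 1431, 1435 and 1490 CPM at day 5, so library 2 at day 5 was level with the highest day 2 library and the other 4 lay above it. The Abcb10-null libraries held 215, 237, 261, 225 and 226 CPM at day 0, a range that overlapped the WT range. At day 2 they held 2782, 672, 1682, 2683 and 1357 CPM. Libraries 1, 3, 4 and 5 lay above every WT day 2 library and library 2 lay below all of them. At day 5 all 5 Abcb10-null libraries, with 2976, 3970, 4140, 2587 and 3471 CPM, lay above the highest WT library.

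The H1f0 rise from day 0 was 2.09 ± 0.10 on the log2 scale (SE, adjusted p = 1.03e-08) at day 2 and 2.82 ± 0.13 (adjusted p = 1.12e-09) at day 5 in WT cells. In Abcb10-null cells it was 3.00 ± 0.30 (adjusted p = 7.74e-06) and 3.89 ± 0.13 (adjusted p = 1.92e-12). Between the genotypes H1f0 was higher in Abcb10-null cells by 0.24 ± 0.07 (adjusted p = 0.0102) at day 0, by 1.08 ± 0.29 (adjusted p = 0.0157) at day 2 and by 1.30 ± 0.16 (adjusted p = 6.80e-05) at day 5. The day 0 difference did not pass in a joint fit of all 30 libraries (adjusted p = 0.515). The extra rise in Abcb10-null cells was 1.07 ± 0.18 (adjusted p = 7.32e-05) at day 5. At day 2 it was 0.89 ± 0.32 with an adjusted p of 0.0475, and this call was kept in 3 of 20 fits that left out 1 library each. Without Abcb10-null libraries 2 and 5 the day 2 difference between genotypes was 1.46 (adjusted p = 7.76e-05) and the extra rise 1.23. Without WT day 2 libraries 1 and 2 these values were 1.05 (adjusted p = 0.0940) and 0.83 (adjusted p = 0.128), so neither passed.

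The share of H1f0 among linker histone transcripts, per kb of exon, rose from 3.06% ± 0.19 (SD, n = 5) to 10.8% ± 0.91 and 20.8% ± 1.00 in WT cells at days 2 and 5. In Abcb10-null cells it rose from 4.13% ± 0.50 to 11.2% ± 1.70 and to a range of 21.8% to 24.9%. All 4 differences from day 0 had an adjusted p of 0.0128 (exact two-sided permutation test of 5 against 5, adjusted over 21 share tests), from an unadjusted p of 0.00794, the smallest 5 against 5 can give. The genotypes differed by 1.07 percentage points at day 0 (adjusted p = 0.0128), by 0.46 points at day 2 (adjusted p = 0.633) and by 2.18 points at day 5 (adjusted p = 0.0357), all exact permutation tests. The linker histone total was taken over H1f0, H1fx and Hist1h1a to Hist1h1e, with H1fx at its listed 0. The H1f0 percentages would be lower if H1fx was in fact expressed. The percentages also depend on the annotated exon length, which is long for the linker gene Hist1h1d. In WT cells at day 0 it had 1090 CPM but 147 CPM per kb, against 996 and 1344 for Hist1h1a. Without division by exon length, all 21 share tests kept their direction and their side of the threshold. The S-phase linker genes also differed between the genotypes, though they did not follow H1f0 in WT cells. Over the 5 days in WT cells 2 of 5 were higher and 2 lower (median -0.34). At day 0 all 5 had negative genotype differences (-0.32 to -0.04), of which 1 passed. The list of 5 S-phase linker genes had 5 of 5 higher in Abcb10-null cells at day 5 (median log2 difference 0.87) and 4 of 5 at day 2 (median 0.80). Their summed level ranged from 2864 to 5291 CPM in WT cells and from 5684 to 10981 CPM in Abcb10-null cells at day 5. Hist1h1a, an S-phase linker gene, showed the largest difference, with 436 ± 76.9 CPM in WT cells and 1687 ± 474 CPM in the clone at day 5 (log2 difference 1.94) and from 832 to 2213 CPM at day 2 (1.36). At day 0 only Hist1h1b of the 5 passed, lower by 0.32 on the log2 scale in Abcb10-null cells (378 and 304 CPM). Hist1h1a fell by 1.19 from day 0 to day 5 in WT cells, and Hist1h1c rose by 1.62 in Abcb10-null cells, from 836 ± 146 to 2563 ± 586 CPM.

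**Figure D2:**
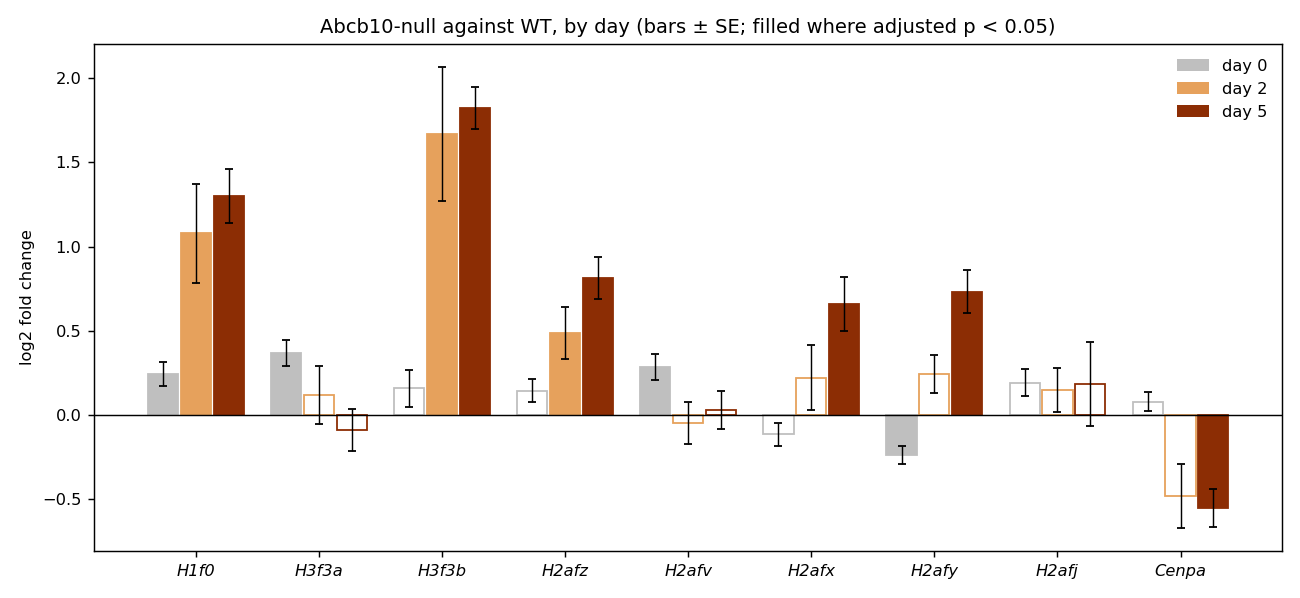
Difference between Abcb10-null and WT cells for each measured member at days 0, 2 and 5, as log2 fold change (vertical axis) with its SE, filled where the adjusted p of edgeR's quasi-likelihood test was under 0.05. H3f3b and H1f0 had the highest bars at days 2 and 5, and the bar of Cenpa pointed down at day 5 (-0.55).

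The 2 H3.3 genes encode the same protein and differed in their response. H3f3b showed the largest difference between genotypes of all members. WT libraries held 415, 547, 518, 581 and 533 CPM at day 0. They held 642, 550, 555, 626 and 565 CPM at day 2 and 694, 610, 672, 744 and 732 CPM at day 5. The Abcb10-null libraries held 707, 594, 418, 641 and 552 CPM at day 0 and overlapped the WT ones. At day 2 they held 2629, 463, 2803, 2937 and 878 CPM, so that 4 of 5 lay above every WT library and library 2 below all of them. At day 5 they held 1913, 2354, 2587, 2492 and 2931 CPM, all above the WT range.

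Between the genotypes, H3f3b differed by 0.16 on the log2 scale at day 0 (adjusted p = 0.274), by 1.67 ± 0.40 (SE, adjusted p = 0.00910) at day 2 and by 1.82 ± 0.13 (adjusted p = 1.71e-06) at day 5. Its rise from day 0 to day 5 was 0.41 ± 0.10 (adjusted p = 0.00305, and 0.181 in a joint fit of all 30 libraries) in WT cells and 2.08 ± 0.14 (adjusted p = 1.99e-09) in Abcb10-null cells, and the difference between these changes was 1.68 ± 0.18 (adjusted p = 3.02e-07). At day 2 the WT difference from day 0 was 0.18 (adjusted p = 0.119), the Abcb10-null rise was 1.76 ± 0.40 (adjusted p = 0.00335) and the difference between them was 1.56 ± 0.44 (adjusted p = 0.0146). Without Abcb10-null day 2 libraries 2 and 5, the H3f3b difference at day 2 was 2.20 (adjusted p = 4.62e-07), and without WT day 2 libraries 1 and 2 it was 1.69 (adjusted p = 0.0666).

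H3f3a held 86.8 to 117 CPM in WT cells at day 0, 103 to 167 at day 2, and 237, 170, 229, 217 and 170 CPM at day 5. In Abcb10-null cells it held 119 to 135 CPM at day 0, 134, 123, 157, 169 and 93.96 CPM at day 2 and 171 to 220 CPM at day 5. It was thus above the WT range in untreated Abcb10-null cells and overlapped it on the later days. Among all genes, 23.3% did not overlap between the genotypes at day 0. The difference between genotypes was 0.37 ± 0.08 (adjusted p = 0.000874) at day 0, 0.12 (adjusted p = 0.625) at day 2 and -0.09 (adjusted p = 0.597) at day 5. The day 0 difference did not pass in a joint fit of all 30 libraries (adjusted p = 0.0776). Over the 5 days H3f3a rose by 1.06 ± 0.12 (adjusted p = 3.98e-06) in WT and by 0.61 ± 0.08 (adjusted p = 6.52e-06) in Abcb10-null cells, a smaller rise in the latter by 0.44 (interaction -0.44 ± 0.15, adjusted p = 0.0246), which did not pass when all 30 libraries were fitted together (adjusted p = 0.0853).

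The share of H3f3b among H3.3 transcripts showed this divergence. It was 86.1% ± 1.57 (SD, n = 5) in WT cells at day 0, 85.2% ± 3.38 at day 2 and 79.9% ± 2.50 at day 5, and 84.0% ± 3.302, 92.0% ± 6.07 and 93.6% ± 1.24 in Abcb10-null cells. At day 5 the genotypes did not overlap, at 77.5% to 83.5% in WT and 91.4% to 94.3% in Abcb10-null libraries, which gave a difference of 13.7 percentage points (adjusted p = 0.0128, exact permutation test). From day 0 to day 5 the share fell by 6.20 points in WT and rose by 9.64 points in Abcb10-null cells (both adjusted p = 0.0128, exact permutation test). At day 2 the difference between genotypes was 6.82 points (adjusted p = 0.0784, exact permutation test), and Abcb10-null library 2 stood at 81.6% against 91.7% to 95.9% in the other 4.

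**Figure D3:**
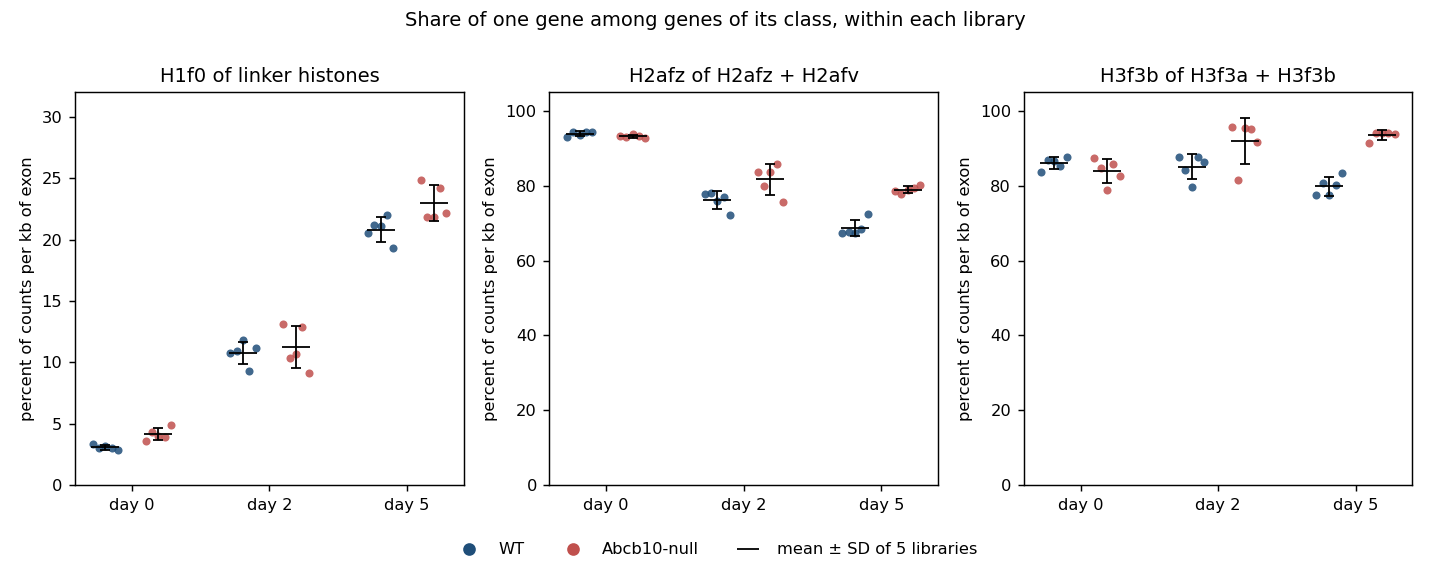
Share of H1f0 among linker histone transcripts, of H2afz among H2A.Z transcripts and of H3f3b among H3.3 transcripts in every library (vertical axes, percent of CPM per kb; horizontal axis, group), with mean ± SD (n = 5). H3f3b at day 5 lay between 77.5% and 83.5% in WT and between 91.4% and 94.3% in Abcb10-null libraries.

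Of the 7 chaperone genes that lay down H3.3, 6 passed the test between genotypes at day 5 (1 higher and 5 lower in Abcb10-null cells, median log2 difference -0.70) and 5 at day 2 (1 higher and 4 lower, median -0.73), while 1 passed at day 0. Cabin1, a subunit of the HIRA complex, differed most, with 139 ± 68.4 CPM in WT cells and 36.1 ± 4.58 CPM in the clone at day 5 (log2 difference -1.96) and 90.6 ± 56.8 and 30.02 ± 4.28 CPM at day 2 (-1.65). The WT libraries varied widely in this gene. In WT cells 6 of 7 passed from day 0 to day 5 (4 higher and 2 lower, median 1.01), Cabin1 rising by 2.46 from 25.3 ± 4.51 CPM. In Abcb10-null cells 5 of 7 passed (3 higher and 2 lower, median 0.18), and Hira, the core of that complex, fell by 1.84 on the log2 scale, from 59.8 ± 5.53 to 16.6 ± 4.62 CPM. Ubn2, another HIRA partner, was the gene that passed at day 0, lower in Abcb10-null cells by 0.31 (38.4 and 31.1 CPM).

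The 2 H2A.Z genes moved in opposite directions with DMSO. H2afz, the major one, fell in both genotypes and fell less in the Abcb10-null cells. WT libraries held 896, 904, 817, 901 and 798 CPM at day 0. They held 415, 445, 557, 511 and 445 CPM at day 2 and 428, 289, 390, 389 and 447 CPM at day 5. The Abcb10-null libraries held 924, 911, 1087, 993 and 883 CPM at day 0. They held 814, 569, 713, 842 and 506 CPM at day 2 and 691, 623, 646, 656 and 814 CPM at day 5. Groups of the same genotype did not overlap between day 0 and either later day, and the lowest Abcb10-null library at day 5 exceeded the highest WT one. Among all genes, 30.1% to 57.4% did not overlap from day 0 to a later day, and 24.7% did not between the genotypes at day 5.

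H2afz fell by 0.86 on the log2 scale at day 2 (adjusted p = 6.28e-06) and by 1.15 at day 5 (SE 0.11, adjusted p = 9.86e-07) in WT cells, and by 0.45 (SE 0.14, adjusted p = 0.0179) and 0.48 (SE 0.09, adjusted p = 0.000210) in Abcb10-null cells. The smaller fall at day 5 was itself tested, with an interaction of 0.68 ± 0.14 (adjusted p = 0.000822). Between the genotypes the difference was 0.15 (adjusted p = 0.0900) at day 0, 0.49 ± 0.15 (adjusted p = 0.0281) at day 2 and 0.81 ± 0.13 (adjusted p = 0.000350) at day 5. The day 2 call was kept in 4 of 10 fits that left out 1 library each, and without Abcb10-null libraries 2 and 5 the difference was 0.68 (adjusted p = 0.000882). Without WT day 2 libraries 1 and 2 it was 0.41 (adjusted p = 0.160).

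H2afv, the minor H2A.Z gene, held 61.5, 48.5, 52.0, 49.9 and 44.3 CPM in WT cells at day 0. It held 109, 115, 162, 140 and 157 CPM at day 2 and 190, 127, 174, 165 and 156 CPM at day 5. In Abcb10-null cells it ranged from 59.9 to 64.6 CPM at day 0, from 127 to 150.4 CPM at day 2 and from 156 to 184 CPM at day 5, which overlapped the WT range on each day. It rose by 1.41 (adjusted p = 1.23e-06) and 1.66 ± 0.12 (adjusted p = 5.67e-08) in WT cells at days 2 and 5, and by 1.15 (adjusted p = 5.88e-07) and 1.42 (adjusted p = 1.33e-10) in Abcb10-null cells. The genotypes differed at day 0 by 0.28 ± 0.08 (adjusted p = 0.00809), and the values at days 2 and 5 were -0.05 (adjusted p = 0.805) and 0.03 (adjusted p = 0.8504). The day 0 difference did not pass in a joint fit of all 30 libraries (adjusted p = 0.0897).

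With 1 gene falling and the other rising, the share of H2afz among H2A.Z transcripts fell from 93.9% ± 0.62 (SD, n = 5) to 76.2% ± 2.36 and 68.7% ± 2.17 in WT cells and from 93.3% ± 0.40 to 81.7% ± 4.07 and 79.0% ± 0.89 in Abcb10-null cells. At day 5 it was higher in Abcb10-null cells by 10.4 percentage points (adjusted p = 0.0128, exact permutation test), with WT libraries from 67.4% to 72.5% and Abcb10-null libraries from 77.9% to 80.3%. At day 2 the difference was 5.51 points (adjusted p = 0.0625, exact permutation test).

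Among the 20 genes of the complexes that exchange H2A.Z, 7 passed between genotypes at day 5 (3 higher and 4 lower, median log2 difference 0.023), 10 at day 2 (5 and 5, median 0.014) and 1 at day 0 (median 0.025). Trrap, a scaffold of the TIP60 complex, differed most at both later days, with a mean of 136 ± 61.6 CPM in WT cells, compared with 36.0 ± 22.9 CPM in the clone, at day 2 (-1.96) and 114 ± 73.6 and 53.2 ± 14.3 CPM at day 5 (-1.12). Vps72, the YL1 subunit of both complexes, was the gene that passed at day 0 (-0.41). Over the 5 days of DMSO, 14 of 20 passed in WT (7 higher and 7 lower, median -0.084) and 16 of 20 in Abcb10-null cells (9 higher and 7 lower, median 0.017). Ruvbl1, an ATPase of both complexes, fell most in each genotype, by 2.62 from 181 ± 6.27 CPM in WT and by 1.95 from 176 ± 11.7 CPM in Abcb10-null cells. The list therefore showed no common direction beside the fall of H2afz and the rise of H2afv.

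**Figure D4:**
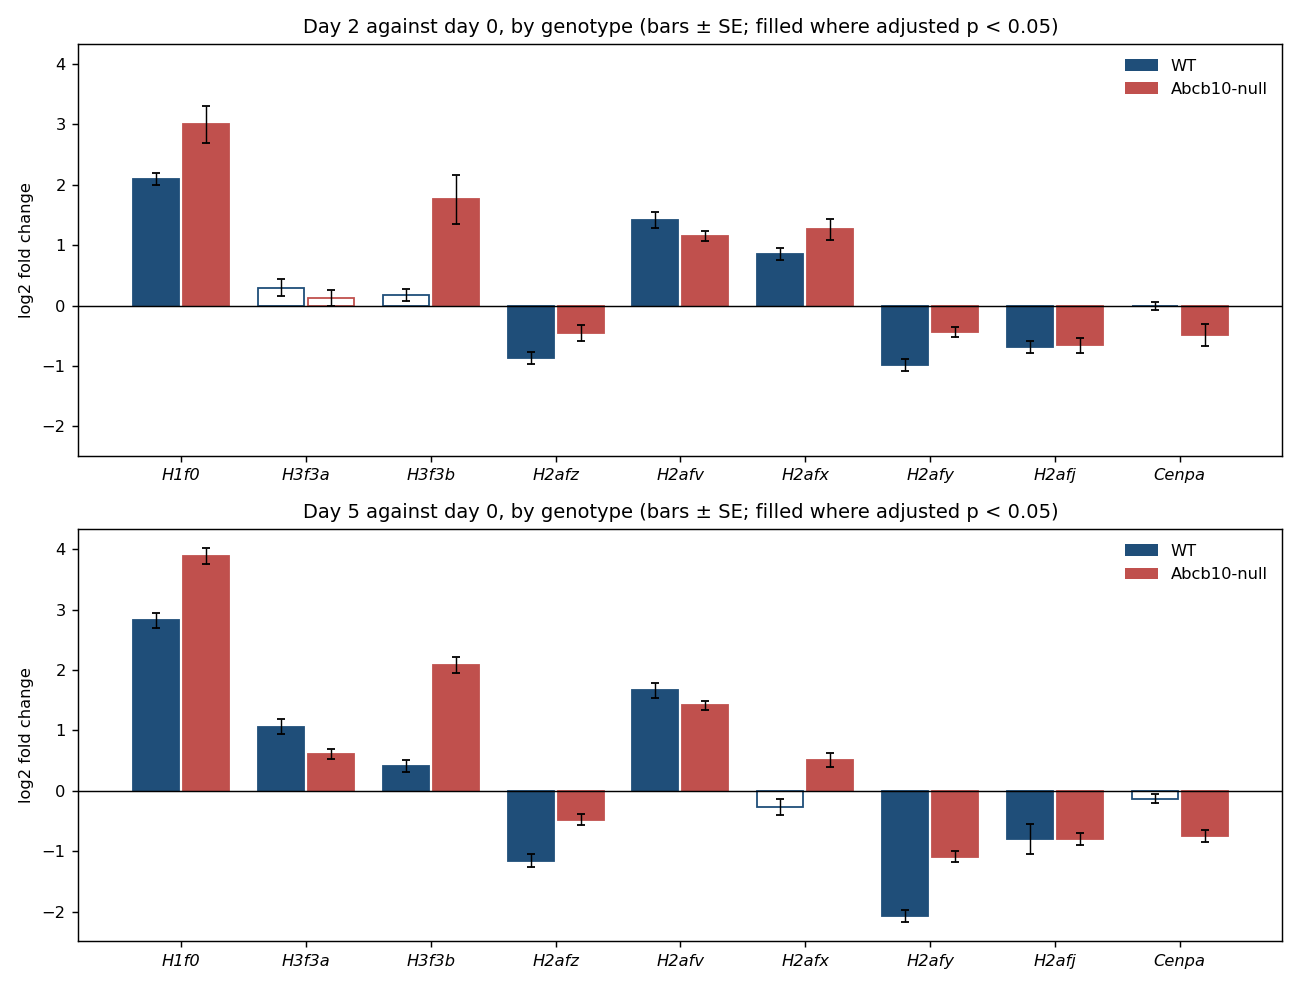
Change from day 0 to day 2 and to day 5 in WT and in Abcb10-null cells for each measured member, as log2 fold change with its SE, filled where the adjusted p was under 0.05. The bars of H1f0 and H2afv pointed up and those of H2afz, H2afy and H2afj down in both genotypes. H3f3b reached 2.08 at day 5 in Abcb10-null cells and 0.41 on that day in WT cells.

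H2afx, whose protein marks DNA breaks, peaked at day 2. In WT cells it held 414 to 494 CPM at day 0. It held 884, 972, 814, 894 and 646 CPM at day 2 and 429, 265, 423, 376 and 443 CPM at day 5. In Abcb10-null cells it held 378 to 454 CPM at day 0. It held 1130, 735, 1319, 1223 and 687 CPM at day 2 and 522, 634, 665, 479 and 775 CPM at day 5. WT cells at day 5 were thus in or below the range of day 0, and every Abcb10-null library at day 5 stood above the highest WT library of that day.

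At day 2 H2afx had risen by 0.86 (adjusted p = 1.60e-05) in WT and by 1.26 (adjusted p = 7.03e-05) in Abcb10-null cells. At day 5 the difference from day 0 was -0.27 (adjusted p = 0.0772) in WT cells and 0.52 ± 0.12 (adjusted p = 0.00101) in Abcb10-null cells, and these changes differed by 0.79 ± 0.18 (adjusted p = 0.00186). Between the genotypes H2afx differed by -0.11 (adjusted p = 0.201) at day 0, 0.22 (adjusted p = 0.400) at day 2 and 0.66 ± 0.16 (adjusted p = 0.00621) at day 5. Without Abcb10-null libraries 2 and 5, which held the 2 lowest values of their group, the day 2 difference was 0.49 (adjusted p = 0.0145). Without WT day 5 libraries 2 and 5 the WT difference from day 0 was -0.18 (adjusted p = 0.0396).

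Of 11 genes that signal from H2A.X or act beside it, 5 passed between genotypes at day 5 (3 higher and 2 lower, median -0.087), 3 at day 2 (2 higher and 1 lower, median 0.19) and 3 at day 0 (2 higher and 1 lower, median 0.11). Atr, a kinase that phosphorylates H2A.X, was higher in untreated Abcb10-null cells by 0.63 (143 and 222 CPM). Mdc1, the reader of phosphorylated H2A.X, was lower by 1.04 at day 2 (log2 difference -1.04, 47.6 and 23.8 CPM), and the kinase gene Chek1 was higher by 0.62 at day 5 (34.2 and 52.9 CPM). From day 0 to day 5, 7 of 11 passed in WT (3 higher and 4 lower, median 0.023), led by Chek1 (-1.10), and 6 of 11 in Abcb10-null cells (1 higher and 5 lower, median -0.048), led by Brca1 (-1.42), a DNA repair gene.

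H2afy, the macroH2A gene, fell with DMSO in both genotypes and fell further in WT cells. WT libraries ranged from 230.2 to 251.8 CPM at day 0 and from 106 to 148 CPM at day 2, and held 58.2, 50.1, 58.8, 51.9 and 73.7 CPM at day 5. Abcb10-null libraries ranged from 204 to 213 CPM at day 0 and from 147 to 160.0 CPM at day 2, and held 99.8, 79.6, 91.5, 99.98 and 118 CPM at day 5. The order of the genotypes was thus turned around between day 0, when every Abcb10-null library lay below the WT ones, and day 5, when every one lay above. Among all genes, 23.3% did not overlap between the genotypes at day 0 and 24.7% at day 5.

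The fall of H2afy from day 0 was 0.99 at day 2 (log2 fold change -0.99, adjusted p = 3.39e-06) and 2.07 at day 5 (-2.07 ± 0.10, adjusted p = 2.55e-09) in WT cells, against -0.44 (adjusted p = 0.000640) and -1.09 ± 0.09 (adjusted p = 2.86e-08) in Abcb10-null cells. The difference between these changes was 0.53 ± 0.13 (adjusted p = 0.00610) at day 2 and 0.98 ± 0.14 (adjusted p = 9.75e-06) at day 5. Between the genotypes H2afy differed by -0.24 ± 0.05 (adjusted p = 0.00181) at day 0, 0.25 (adjusted p = 0.107) at day 2 and 0.73 ± 0.13 (adjusted p = 0.000868) at day 5. The day 0 difference did not pass in a joint fit of all 30 libraries (adjusted p = 0.160).

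H2afj, a gene of a divergent H2A, fell in both genotypes. It ranged from 59.1 to 79.2 CPM in WT cells at day 0 and from 40.2 to 46.3 CPM at day 2, and held 32.7, 25.6, 39.8, 28.2 and 76.5 CPM at day 5, where library 5 was more like the day 0 libraries. In Abcb10-null cells it ranged from 77.0 to 83.4 CPM at day 0, from 39.0 to 58.6 CPM at day 2 and from 39.6 to 56.2 CPM at day 5. It fell by 0.69 (adjusted p = 5.10e-05) and 0.80 ± 0.25 (adjusted p = 0.0111) in WT cells at days 2 and 5, and by 0.66 (adjusted p = 0.000597) and 0.80 (adjusted p = 1.66e-06) in Abcb10-null cells. No genotype difference in H2afj passed the test at day 0 (0.19, adjusted p = 0.0727), day 2 (0.15, adjusted p = 0.406) or day 5 (0.18, adjusted p = 0.588). Without WT day 5 libraries 2 and 5 the day 5 difference was 0.43 (adjusted p = 0.0347).

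Cenpa, the centromeric H3 variant, was the only measured member that passed the test as lower in Abcb10-null cells at day 5. WT libraries held 346, 348, 333, 304 and 327 CPM at day 0. They held 319 to 347 CPM at day 2 and 328, 291, 286, 293 and 322 CPM at day 5, ranges that overlapped one another. The Abcb10-null libraries held 326 to 373 CPM at day 0. They held 178, 362, 208, 181 and 297 CPM at day 2 and 265, 213, 191, 183 and 191 CPM at day 5. At day 5 all 5 lay below the lowest WT library, and at day 2 libraries 1, 3, 4 and 5 did, while library 2 was above the WT range.

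Cenpa differed between the genotypes by 0.08 (adjusted p = 0.297) at day 0, by -0.48 ± 0.19 (adjusted p = 0.0695) at day 2 and by -0.55 ± 0.11 (adjusted p = 0.00205) at day 5. In WT cells the difference from day 0 was -0.0045 (adjusted p = 0.959) at day 2 and -0.13 (adjusted p = 0.165) at day 5. In Abcb10-null cells Cenpa fell by 0.49 (SE 0.18, adjusted p = 0.0454) at day 2, a call kept in 2 of 10 fits that left out 1 library each, and by 0.75 (SE 0.10, adjusted p = 5.26e-06) at day 5. The changes to day 5 differed between genotypes by -0.61 ± 0.13 (adjusted p = 0.000795). Without Abcb10-null libraries 2 and 5 the day 2 difference between genotypes was -0.86 (adjusted p = 0.000101), and in the joint fit its adjusted p was 0.0110. Without WT day 2 libraries 1 and 2 that difference was -0.49 (adjusted p = 0.172). It passed in 1 of 10 fits that left out 1 library each.

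Of 14 genes that load CENP-A or build on it at the centromere, 7 passed between genotypes at day 5, all lower in Abcb10-null cells (median log2 difference -0.42), beside 5 at day 2 (2 higher and 3 lower, median -0.11) and 5 at day 0 (4 higher and 1 lower, median 0.15). The largest called differences were those of the centromere proteins Cenpt at day 5 (-0.88, 11.7 and 6.39 CPM), Cenpn at day 2 (0.51, 61.02 and 90.2 CPM) and Cenpw at day 0 (-0.29). From day 0 to day 5, 7 of 14 passed in WT (2 higher and 5 lower, median 0.0052) and 11 of 14 in Abcb10-null cells (2 higher and 9 lower, median -0.39). Cenpm fell most in both, by 1.59 from 15.7 CPM in WT and by 1.91 from 14.9 CPM in Abcb10-null cells.

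Cell cycle genes are given beside these results because several variants are known to follow the cycle. S-phase genes fell from day 0 to day 5 in both genotypes (15 of 16 in WT, median -1.22, and 16 of 16 in Abcb10-null cells, median -1.25), led by the replication helicase genes Mcm3 in WT (-2.03) and Mcm5 in Abcb10-null cells (-2.58). Their summed level at day 5 spanned 1731 to 2352 CPM in WT and 1452 to 2083 CPM in Abcb10-null cells, and 5 of 16 passed between genotypes (1 higher and 4 lower, median -0.19), with Ccne1 lowest (-0.89). At day 2, 2 of 16 passed, both lower (median 0.014, Cdt1 -1.02), and at day 0, 6 of 16 (3 and 3, median 0.067, Mcm6 0.31). Of 14 mitosis genes, 7 passed between genotypes at day 5 (4 higher and 3 lower, median 0.099, Ccnb2 -0.71), 3 at day 2 (1 higher and 2 lower, median -0.15, Plk1 -1.58) and 6 at day 0 (4 higher and 2 lower, median 0.034, Plk1 -0.29). From day 0 to day 5, 7 of 14 mitosis genes passed in WT (2 higher and 5 lower, median -0.21, Cdk1 -0.68) and 6 in Abcb10-null cells (1 higher and 5 lower, median -0.0052, Aurkb -1.11). The summed S-phase genes overlapped between the genotypes at day 5. The summed S-phase linker histone genes given above did not overlap on that day, and neither did 24.7% of all genes taken singly. H2afx was most like clustered histone genes over the libraries. The part of cell cycle differences in the members was not tested.

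The 11 general and replication-coupled histone chaperone genes fell with differentiation, 10 of 11 from day 0 to day 5 in WT (all lower, median -0.89) and 8 of 11 in Abcb10-null cells (all lower, median -0.81). Nasp, a chaperone of H3 and linker histones, fell most in WT (-2.31, from 531 ± 44.3 to 107 ± 17.7 CPM), and Ssrp1, a subunit of FACT, in Abcb10-null cells (-1.72, from 556 ± 88.0 to 167 ± 25.3 CPM). Between the genotypes 5 of 11 passed at day 5 (4 higher and 1 lower, median 0.17), 6 at day 2 (4 higher and 2 lower, median 0.26) and 6 at day 0 (3 and 3, median -0.056). Npm1, a nucleolar histone chaperone, was higher at day 5 by 1.39 (701 ± 110 and 1839 ± 187 CPM), Tonsl, a reader of new histone H4, lower at day 2 (-1.79), and Supt16, the other FACT subunit, higher at day 0 by 0.57 (654 and 975 CPM). Erythroid markers moved with the genotype too. At day 5, 14 of 14 measured were lower in Abcb10-null cells (median -1.47), and their part in the differences of the members was not tested.

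The libraries of the Abcb10-null day 2 group were split in the members as they were genome-wide. H3f3b, H1f0, H2afz and H2afx were lower, and Cenpa higher, in libraries 2 and 5 than in the other 3. The summed erythroid markers were 3035 and 3019 CPM in libraries 2 and 5 and 3657 to 4454 CPM in the others, the general histone chaperones 4025 and 4045 against 5102 to 5420 CPM, and the mitosis genes 8651 and 9181 against 6901 to 7770 CPM. H2afv, with 131 and 150.4 CPM in libraries 2 and 5 and 127 to 146 CPM in the others, and H2afy, with 160.0 and 151 against 147 to 151 CPM, did not follow this split. The reason for the split was not tested. When both libraries were left out, 5 of 9 members passed between genotypes at day 2 (4 higher and 1 lower), 9 of 9 from day 0 to day 2 in Abcb10-null cells, and 6 of 9 in the interaction at day 2 (5 higher and 1 lower). With all libraries, 31.8%, 43.1% and 22.8% of all genes passed in these comparisons. The shares of all genes without both libraries are not given here, so these counts cannot be read as particular to the members. From day 0 to day 2 in Abcb10-null cells H3f3a, at 0.12 (adjusted p = 0.502) with all libraries, then rose by 0.29 (adjusted p = 0.00940), and the fall of Cenpa went from 0.49 to 0.88 (log2 fold changes -0.49 and -0.88). In the interaction at day 2, H2afz went from 0.39 (adjusted p = 0.104) to 0.56 (adjusted p = 0.00163), H2afx from 0.39 (adjusted p = 0.172) to 0.62 (adjusted p = 0.00193) and Cenpa from -0.51 (adjusted p = 0.0734) to -0.92 (adjusted p = 7.50e-07).

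The other pairs changed fewer calls, apart from those between genotypes at day 2. Without WT day 5 libraries 2 and 5 the H2afv interaction at day 5 went from -0.24 (adjusted p = 0.204) to -0.35 (adjusted p = 0.0302). Without WT day 2 libraries 1 and 2 the H2afv interaction at day 2 went from -0.28 (adjusted p = 0.185) to -0.47 (adjusted p = 0.0274), and H3f3a in WT cells from day 0 to day 2 from 0.30 (adjusted p = 0.0715) to 0.39 (adjusted p = 0.0212). The interactions of H2afy and H3f3b at day 2 still passed without this pair, at 0.38 (adjusted p = 0.0268) and 1.55 (adjusted p = 0.0434).

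**Figure D5:**
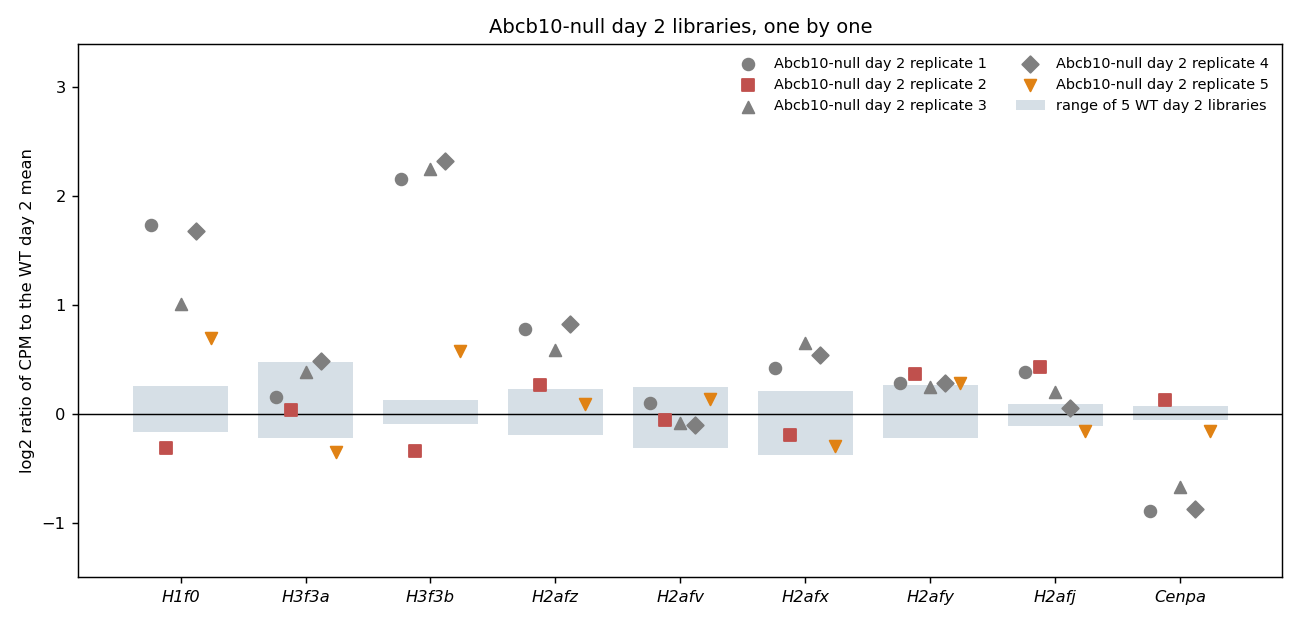
Each Abcb10-null day 2 library's level of each measured member, as log2 ratio to the mean of the WT day 2 libraries (vertical axis), with the range of the WT day 2 libraries as a band. Library 2 (red square) and library 5 (orange downward triangle) lay below the other 3 (grey circle, upward triangle and diamond) for H1f0, H2afz, H2afx, H3f3a and H3f3b, and above them for Cenpa.

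The genes whose levels ran most like a member's over the 30 libraries were found among 8553 genes by Pearson's r of log2 CPM, a description in which the points share genotype, day and library. For H1f0 they were Akap7 (r = 0.97), Klhdc1 and Uhrf2, for H3f3b Ccdc47 (0.97), Lmo4 and Zc3hav1, and for H3f3a Tmem30a (0.94), Klhl9 and March7. For H2afz they were Rad23b (0.98), Fam136a and Mgat2, and for H2afv Cpq (0.97), Trappc6a and Sqor. For H2afy they were Bzw2 (0.98), Rangrf and Prmt1, for H2afj Nans (0.92), Nadk and Pgm3, and for Cenpa Ppp1r16a (0.91), Efhd2 and Papss1. H2afx was the one member whose list was led by clustered histone genes, Hist2h2ac (0.90) and Hist2h4 (0.87), followed by Osm (0.87).

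Some reads of these genes may be shared with other genes. All windows of 51 bases, the read length, in the transcripts of each member were sought on either strand in other genes. Of these windows, 35.1% were also found in another gene for H2afz (30.8% in Tmcc1), 26.9% for H3f3a (16.3% in the opposite-strand gene Gm17275 and 6.64% in the processed copy H3f3c), 9.52% for H2afx, 6.78% for H2afj, 6.66% for H3f3b, 5.91% for H2afy, 5.64% for H1f0, 1.51% for Cenpa and 0% for H2afv. For H2afy and H1f0 the only sharing genes were the opposite-strand genes Gm47071 and Gm49544. How reads that match several genes were counted, and whether strand was used, are not given in the sources used here, so H2afz and H3f3a are the least certain levels. The H3.3 copies H3f3a-ps1, H3f3c and H3f3a-ps2 had at most 23, 13 and 8 counts in any library. Antisense or opposite-strand genes covered 18.2% of the H3f3a exon bases (Gm17275), 10.2% of those of H2afx, 7.93% of H1f0, 7.70% of H2afj and 7.36% of H2afy. The most counts any of these had in a library was 97. Of other variant genes, Hist3h2ba (238 to 4241 counts) and Hist3h2a (34 to 211 counts) were over the count floor in all 30 libraries. H2afy2 had at most 12 counts in a library, H1fnt at most 6, H1foo and H2afb1 at most 3, and Hils1 and H2afb3 were listed at 0.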

How the data were processed

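Total RNA of WT and Abcb10-null MEL cells was depleted of ribosomal and globin RNA and made into stranded paired-end libraries. Per the study's methods, the authors trimmed reads with cutadapt, aligned them to GRCm38 (mm10) with STAR 2.6.1b and counted them per gene with featureCounts 1.6.3; the deposited values are whole-number counts per Ensembl gene, with no normalization. Settings for strand and multiply mapped reads are not given in the sources used here, and rRNA and globin levels reflect the depletion. In all, 54532 genes were listed, 9219 of them with no count, and totals per library ran from 9906783 to 20157768 counts.

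Groups were taken from the sample labels. CPM are counts over 1e6 of the library total, scaled by TMM factors (0.93 to 1.12). Genes were filtered with filterByExpr and tested with edgeR 4.0.16 (R 4.3.3) by the quasi-likelihood F test, each comparison fitted on its own libraries (10, or 20 for an interaction), with p-values adjusted by the Benjamini-Hochberg method across every gene tested and 0.05 as the threshold. The 3 shares were taken per kb of exon and compared by exact two-sided permutation tests, for which 5 against 5 gives no p below 0.00794. Named genes of a partner list were those with the largest called log2 fold change in 5 of the comparisons, and the 3 genes most like each member were ranked by Pearson's r. Members and lists were chosen with earlier results of these data known. Promoter sequences came from RefSeq (GRCm38.p6), other sequences and lengths from the GRCm38 genome and annotation, in which 37 listed gene IDs (0.0116% of counts) had no entry. The count floor covers counting error only, whereas the SDs and SEs also hold the spread between libraries. Alternatives were DESeq2 1.42.0, its size factors, other filters, a joint fit of all 30 libraries, a fit without 6140 globin, mitochondrial and small RNA genes, a replicate block and the omission of single libraries. Leaving out 2 libraries together was chosen after seeing the data. The test scripts were checked on simulated counts.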

Additional observations from a re-analysis of the deposited data

Results flagged for a closer look

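In 7 of 72 sets of 5 libraries a single library lay far from the other 4, by the ratio of its gap to the whole range (critical value 0.71). Chance alone gives about 5% of such sets. H1f0 was 997 CPM in WT day 5 library 2, below 1431 to 1578 CPM in the others. H2afj was 76.5 CPM in WT day 5 library 5, above 25.6 to 39.8 CPM, and the H2afz share in the same library was 72.5%, above 67.4% to 68.4%. H3f3a was 167 CPM in WT day 2 library 3, above 103 to 120 CPM. H2afx was 378 CPM in Abcb10-null day 0 library 5, below 438 to 454 CPM, and H2afy was 230.2 CPM in WT day 0 library 4, below 247 to 251.8 CPM. The H3f3b share was 91.4% in Abcb10-null day 5 library 1, below 94.01% to 94.3%.

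The change from day 0 differed between the genotypes, by edgeR's interaction test, in 10 results. At day 2 the differences (Abcb10-null change minus WT change, log2) were 0.89 for H1f0, 0.53 for H2afy and 1.56 for H3f3b. At day 5 they were 1.07 for H1f0, 0.68 for H2afz, 0.79 for H2afx, 0.98 for H2afy, -0.44 for H3f3a, 1.68 for H3f3b and -0.61 for Cenpa. Day 2 and day 5 share the day 0 libraries, so the 2 sets of values are not independent.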

How the results depend on the processing

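Over all alternatives, 175 of 182 counts of called members stayed within 1.5 times the reported count, 1502 of 1638 member log2 differences kept their direction and their side of the threshold, and so did 223 of 231 share differences. When all 30 libraries were fitted together, the day 0 comparison of genotypes called 0 of 9 members instead of 4 (for the 4, log2 differences of 0.38 for H3f3a, 0.29 for H2afv, -0.23 for H2afy and 0.25 for H1f0, with adjusted p from 0.0776 to 0.515) and the day 2 comparison called 5 instead of 3. Without Abcb10-null day 2 libraries 2 and 5 together the day 2 comparison called 5 and the interaction at day 2 called 6 instead of 3. Without WT day 2 libraries 1 and 2 together the day 2 comparison called 0. Calls over all genes can change with the fit as well, as given above for this pair, so these counts are not particular to the members. Leaving out 1 library gave 2 to 5 for the interaction at day 2, 5 without Abcb10-null library 2 or library 5. The H1f0 share difference at day 5 was 1.71 to 2.47 points, and its call was lost without WT library 1, 2, 3 or 5. The day 2 difference in the H2afz share was 4.47 to 7.06 points, called without Abcb10-null library 5 only, and that in the H3f3b share 5.44 to 9.42 points, called without Abcb10-null library 2 only. The H3f3b share from day 0 to day 2 changed by 6.74 to 10.6 points in Abcb10-null cells, called without library 2 only, and by -1.60 to 0.42 points in WT cells, positive without WT day 2 library 3 only.

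Small differences changed sign without being called. H2afv between genotypes at day 2 was 0.0016 in the joint fit and -0.11 to 0.0204 without single libraries, and at day 5 -0.0010 with all genes, -0.11 without WT day 5 libraries 2 and 5, and -0.0599 to 0.0899 without single libraries. Cenpa in WT at day 2 was 0.0142 with DESeq2, 0.0140 with its size factors, 0.0351 with at least 10 counts in every library, 0.0302 without globin and small RNA genes, 0.0518 without WT day 2 libraries 1 and 2, and -0.0462 to 0.0453 without single libraries. The H2afj interaction at day 2 was -0.0135 with DESeq2, -0.0118 with its size factors, -0.0068 with all genes, -0.0346 with at least 10 counts, -0.00077 in the joint fit, -0.0152 without globin genes, -0.0133 with the replicate block, -0.0031 without Abcb10-null libraries 2 and 5, -0.0388 without WT day 2 libraries 1 and 2 and -0.0704 to 0.0795 without single libraries. At day 5 it was -0.0177, -0.0160, -0.0326 and -0.0141 with DESeq2, size factors, at least 10 counts and the joint fit, and -0.12 to 0.36 without single libraries. The cause of these changes was not tested.

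Over 75 same-numbered pairs of libraries, deviations from the group mean had correlations from -0.50 to 0.52 (median -0.0077, 21 over 0.1). Differently numbered pairs were not compared, so these values cannot show whether the numbers pair the libraries. The main fits did not use the numbers. With the replicate block all 9 counts of called members stayed within 1.5 times. Under the block Cenpa differed between genotypes at day 2 by -0.54 (adjusted p = 0.0352), and the H1f0 interaction at day 2 had an adjusted p of 0.0736. All members but H1fx were counted in every library. The cause of the H1fx zeros was not tested.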
